A study of Mus musculus with 12 samples.

Results

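A set of 10 genes that mark white fat cells, Adipoq, Plin1, Plin4, Cfd, Cidec, Fabp4, Lipe, Car3, Retn and Lep, was followed through colon RNA from 12 mice. They were chosen by symbol from the 21899 genes of the deposited table, and all 10 were found. CKO denotes 6 mice in which Pck1 was deleted in the epithelial cells of the gut, and WT denotes 6 littermates as controls. Mice of both genotypes had received 2.5% DSS (dextran sulfate sodium, which damages the lining of the colon) for 7 days, and no mice without DSS were used here. The labels name neither the Cre driver nor the age of the mice. RNA came from colon tissue with its mix of cells, so fewer cells of a type cannot be told apart from less RNA per cell.

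Adipocytes store triglyceride in a single large droplet. Perilipins coat the droplet and Cidec fuses small droplets into large ones; hormone-sensitive lipase, encoded by Lipe, breaks the stored fat down, and the fatty acids leave with the carrier protein Fabp4. Fat cells also secrete hormones, among them adiponectin (Adipoq), leptin (Lep), resistin (Retn in mice) and adipsin (Cfd), the complement factor D. Mesenteric fat borders the colon, so it can be dissected with it. Pck1, the gene deleted here in the epithelium, is also active in fat cells, where its enzyme supplies glycerol for triglyceride synthesis. The level of these genes was therefore set beside the Pck1 left in CKO colon.

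Of the 10 members, 8 had a promoter in the RefSeq set (build GRCm38.p6, 300 bases around each transcript start), and Car3 and Fabp4 did not. C/EBP factors switch on genes in fat cells, and their site was searched as TTGCNNAA on both strands. It was held by 3 of the 10 promoters of these 8 members, from Lep, Cidec and Plin1, and by 10.8% of all 32851 promoters. The site of PPAR with RXR, written as AGGNCA repeated after a spacer of 1 base, was in 0 promoters of the 8 members and in 0.381% of all. The half-site AGGTCA, which is part of some of these repeats, and the TATA box TATAAA were likewise in 0 of the 10 promoters, against 16.3% and 13.6% of all promoters. A match describes the letters and says nothing of a factor's binding. Stretches are shown for the 3 genes with a match because they hold the match. Each runs up to the transcript start or to the first annotated exon base inside its promoter window. Capitals mark the C/EBP matches, and sequences run 5′ to 3′ on the gene's strand.
Lep, chr6:29059971-29060219, plus strand: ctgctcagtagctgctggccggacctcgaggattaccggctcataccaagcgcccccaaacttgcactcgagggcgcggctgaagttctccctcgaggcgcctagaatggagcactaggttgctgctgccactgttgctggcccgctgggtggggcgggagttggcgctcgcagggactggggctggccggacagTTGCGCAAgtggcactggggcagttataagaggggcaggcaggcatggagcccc
Cidec, chr6:113434765-113435014, minus strand: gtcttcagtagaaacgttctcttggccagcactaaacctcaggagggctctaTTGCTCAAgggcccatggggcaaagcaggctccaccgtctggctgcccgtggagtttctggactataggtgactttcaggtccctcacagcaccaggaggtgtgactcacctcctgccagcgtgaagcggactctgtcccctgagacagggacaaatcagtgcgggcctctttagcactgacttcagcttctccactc
Plin1, chr7:79732904-79733026, minus strand: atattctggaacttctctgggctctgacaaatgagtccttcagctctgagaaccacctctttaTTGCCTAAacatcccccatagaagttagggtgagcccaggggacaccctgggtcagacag
The Lep match is the palindrome TTGCGCAA, at position -55 from the transcript start. In Cidec the match is at -198 from a transcript start that lies within the annotated gene. In Plin1 a match is at -187, and a further one, at -58, lies in an annotated exon and is not shown.

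Colon libraries held 15348192 to 18211663 counts in CKO mice and 15881625 to 19138507 in WT mice. Pck1, the deleted gene, was lower in each CKO library than in any WT library, with values given below. Markers of colon epithelium were abundant: the summed level of 8 colon epithelial markers, led by Krt8 and Epcam, was 6654 to 7304 TPM (transcript abundance scaled for gene length and depth by the authors) in CKO libraries and 6746 to 9334 TPM in WT libraries. The summed TPM of the 10 fat cell genes was far smaller, with a lowest, median and highest value of 121, 219 and 418 in CKO libraries and 137, 206 and 317 in WT libraries. Without Fabp4 and Cfd, which are also known from other cells, the sum was 32.9, 51.4 and 105 TPM in CKO and 50.7, 79.7 and 121 TPM in WT libraries. All 10 genes had reads in both genotypes, and each passed the low-count filter. Across genes the median TPM in CKO libraries ran in the order Fabp4, Cfd, Cidec, Lipe, Car3, Plin4, Adipoq, Retn, Plin1 and Lep; Cidec, Lipe and Car3 lay within each other's range. In WT libraries the order was Cfd, Fabp4, Car3, Cidec, Lipe, Adipoq, Plin4, Plin1, Retn and Lep, and the ranges of Cfd, Fabp4 and Car3 overlapped.

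**Figure D1:**
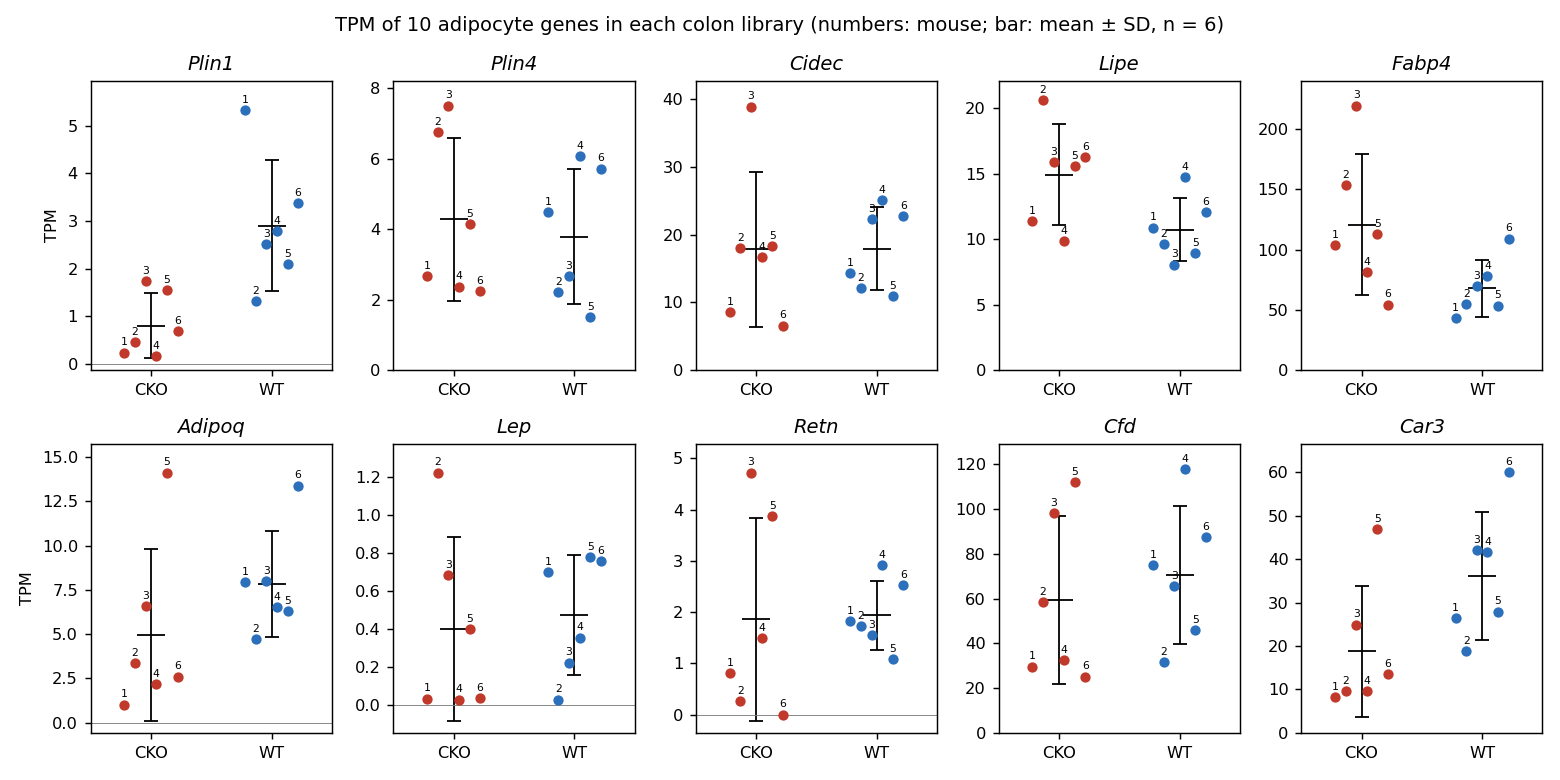
TPM (vertical axis, linear, own scale per gene) of the 10 fat cell genes in each CKO (red) and WT (blue) library; numbers are the mice, and bars are mean ± SD of 6 libraries. Plin1, Adipoq and Car3 have 4 of 6 CKO points below all WT points, while Lipe has 4 of 6 above them.

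Among the droplet proteins, Plin1 had the fold change farthest from 0, and the intervals of Plin4 and Cidec included 0. Plin1 (ENSMUSG00000030546, chromosome 7), the perilipin that guards the droplet against lipase, had a lowest, median and highest level of 0.163, 0.569 and 1.74 TPM in CKO libraries, against 1.31, 2.65 and 5.33 TPM in WT libraries. CKO replicates 1, 2, 4 and 6 lay below every WT library, and the other two lay within the WT range. These levels rest on 2 to 32 reads per CKO library and 20 to 81 per WT library. The log2 fold change, CKO minus WT, was -1.71 ± 0.57 (SE), with a 95% interval from -2.94 to -0.49. It did not pass after Benjamini-Hochberg adjustment over all 14393 genes tested, by the quasi-likelihood test of edgeR (adjusted p = 0.101). DESeq2 gave an adjusted p of 0.0371, and the authors' deposited table lists an adjusted p-value of 0.0432.

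Plin4 (ENSMUSG00000002831, chromosome 17), a perilipin of nascent droplets that muscle also makes, had 2.24, 3.40 and 7.51 TPM as its lowest, median and highest level in CKO libraries and 1.52, 3.59 and 6.08 TPM in WT libraries. CKO replicates 2 and 3 lay above every WT library, WT replicates 2 and 5 lay below every CKO library, and the other 8 overlapped. The log2 fold change was 0.15 ± 0.40 (SE; interval -0.72 to 1.02). Plin4 overlaps Hdgfl2 on the opposite strand, and since no use of strand is stated its reads may be shared. Cidec (ENSMUSG00000030278, chromosome 6) had 6.60, 17.3 and 38.9 TPM in CKO libraries, against 10.99, 18.4 and 25.1 TPM in WT libraries. CKO replicate 3 held the highest Cidec level of all 12 libraries, and CKO replicates 1 and 6 the lowest ones. Its log2 fold change was -0.00 ± 0.42 (SE), with an interval from -0.91 to 0.90, and 5 scaling or filter settings as well as DESeq2 put it just above 0. In limma voom it was -0.23, and with the replicate number in the model -0.19.

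The lipase and the fatty acid carrier had positive fold changes. Lipe (ENSMUSG00000003123, chromosome 7), hormone-sensitive lipase, had 9.89, 15.7 and 20.6 TPM as its lowest, median and highest level in CKO libraries, against 8.07, 10.3 and 14.7 TPM in WT libraries. CKO replicates 2, 3, 5 and 6 lay above every WT library, and replicates 1 and 4 within the WT range. The log2 fold change was 0.41 ± 0.17 (SE; interval 0.05 to 0.76; edgeR adjusted p = 0.164). Without both replicate 4 libraries, a setting chosen after seeing the data, it was 0.58 and passed in edgeR (adjusted p = 0.0263), where 8.4% of all genes were called higher. An antisense gene, 4732471J01Rik, overlaps Lipe, so with no stated use of strand its reads may be shared as well. Fabp4 (ENSMUSG00000062515, chromosome 3) was the most abundant of the 10 genes in CKO libraries, with 54.3, 108 and 219 TPM, against 43.4, 62.1 and 109 TPM in WT libraries. CKO replicates 2, 3 and 5 lay above every WT library and the others within the WT range. Its log2 fold change was 0.79 ± 0.33 (SE; interval 0.09 to 1.49; edgeR adjusted p = 0.169). Fabp4 is also made by capillary endothelium and macrophages. The marker sums of both are given below, and their part in the Fabp4 level was not tested.

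Of the secreted products, adiponectin had the fold change farthest from 0 in edgeR, and the intervals of all 4 included 0. For Adipoq, Retn, Lep and Cfd limma voom gave log2 fold changes of -1.15, -1.13, -0.51 and -0.44, with SE of 0.48, 0.81, 0.83 and 0.41, and none passed. Adipoq (ENSMUSG00000022878, chromosome 16) had 1.01, 2.99 and 14.1 TPM as its lowest, median and highest level in CKO libraries, against 4.73, 7.24 and 13.4 TPM in WT libraries. CKO replicates 1, 2, 4 and 6 lay below every WT library, whereas CKO replicate 5 had the highest level of all 12. The CKO libraries thus spanned 14.0-fold and the WT libraries 2.83-fold. The log2 fold change was -0.71 ± 0.51 (SE), its interval ran from -1.80 to 0.37, and the edgeR adjusted p was 0.433.

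Cfd (ENSMUSG00000061780, chromosome 10), the serine protease that starts the alternative complement pathway, had 25.2, 45.4 and 112 TPM in CKO libraries and 31.5, 70.3 and 118 TPM in WT libraries. CKO replicates 1 and 6 lay below the lowest WT library, and the log2 fold change was -0.28 ± 0.41 (SE; interval -1.16 to 0.59). Retn (ENSMUSG00000012705, chromosome 8) had 0.00, 1.15 and 4.72 TPM in CKO libraries, against 1.08, 1.77 and 2.91 TPM in WT libraries. CKO replicate 6 had 0 Retn reads, which allows up to 3 counts or 0.195 CPM (reads scaled to library size) by counting error alone. CKO replicates 3 and 5 lay above every WT library and CKO replicates 1, 2 and 6 below, for a log2 fold change of -0.06 ± 0.67 (SE; interval -1.50 to 1.37). Lep (ENSMUSG00000059201, chromosome 6), the satiety hormone, had 0.031, 0.218 and 1.22 TPM in CKO libraries, against 0.031, 0.528 and 0.778 TPM in WT libraries. These rest on 1 to 20 reads per CKO library and 1 to 21 per WT library. Its log2 fold change was -0.04 ± 0.73 (SE), with an interval from -1.62 to 1.53.

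Car3 (ENSMUSG00000027559, chromosome 3), the carbonic anhydrase of fat and skeletal muscle, had 8.24, 11.6 and 46.8 TPM as its lowest, median and highest level in CKO libraries, against 18.9, 34.7 and 60.0 TPM in WT libraries. CKO replicates 1, 2, 4 and 6 lay below every WT library, CKO replicate 3 within the WT range, CKO replicate 5 above all WT libraries but 1. The log2 fold change was -1.0 ± 0.43 (SE; interval -1.93 to -0.08; edgeR adjusted p = 0.186). In the genome Car3 lies between Car1 and Car2, both carbonic anhydrases of the colon epithelium. Car1 stood at 2273 ± 1424 TPM in CKO and 2073 ± 1179.7 TPM in WT libraries (SD, n = 6 each). Car2, named after its values were seen, stood at 349.6 ± 66.3 TPM in CKO and 444 ± 78.3 TPM in WT libraries. Of skeletal muscle, another tissue that makes Car3, 8 marker genes were followed. In all 12 libraries together Acta1 had 1824 reads, Ckm 877, Myl1 84, Mylpf 82, Tnnt3 18, Myh2 14, Myh1 7 and Myh4 1. Acta1 and Ckm averaged 11.9 and 4.11 TPM, and the part of muscle in the Car3 level was not tested.

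Across the 10 genes, 0 passed in edgeR after adjustment over all genes tested, where 0.0556% of genes were called. At an unadjusted p under 0.05 the count was 2 higher (Fabp4 and Lipe) and 2 lower (Plin1 and Car3), 4 of 10 in all. Among all tested genes 13.1% were higher and 9.48% lower, 22.6% in all. DESeq2 called 1 member lower, Plin1, and 0 higher, against 3.1% and 7.98% of all genes. The median log2 fold change was -0.05 over the 10 genes and -0.03 over all tested genes. Of the 10 genes 7 lay below 0, as did 54.9% of all tested genes. No member separated the genotypes fully, while 1.52% of tested genes did.

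**Figure D2:**
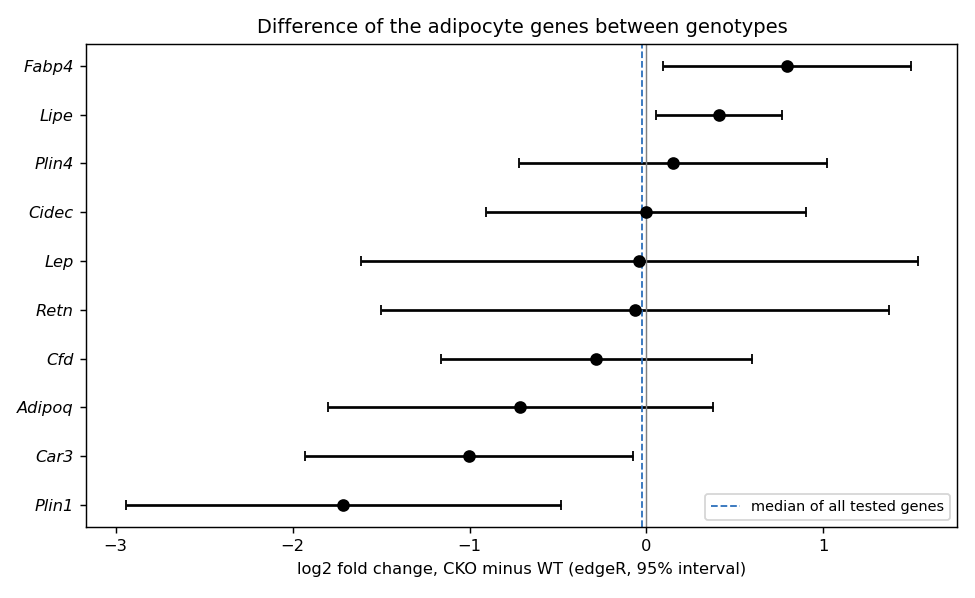
Log2 fold change of each fat cell gene (points, CKO minus WT, edgeR) with its 95% interval over 6 CKO and 6 WT libraries; the dashed line is the median of all tested genes. Intervals of Plin1 and Car3 lie below 0 and those of Fabp4 and Lipe above it, and none passed after adjustment over all genes.

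The make-up of the fat cell signal was set out as shares of the 10 genes. Fabp4 made up 34.2%, 52.3% and 62.4% (lowest, median, highest) of the summed TPM of the 10 genes in CKO libraries and 22.8%, 32.4% and 40.0% in WT libraries. Plin1 made up 0.104% to 0.568% of it in CKO libraries and 0.942% to 2.80% in WT libraries, while its own TPM overlapped between the genotypes. A share also moves with the other members of the sum, of which Fabp4 was the largest in CKO libraries. The Plin1 share rests on 2 to 32 reads per CKO library and on a TPM per read that differed 2.47-fold between libraries. How many other genes would separate the genotypes in such a share was not computed. Car3 made up 3.56%, 6.03% and 14.2% in CKO libraries, against 13.8%, 15.8% and 18.9% in WT libraries. Set against Adipoq in read counts, Car3 kept a similar ratio, 3.72, 5.32 and 10.6 in CKO libraries and 4.33, 5.78 and 8.26 in WT libraries. Plin1 had a ratio to Adipoq of 0.107, 0.231 and 0.382 in CKO libraries, against 0.328, 0.493 and 0.722 in WT libraries, and 5 of 6 CKO values lay below all WT values. Fabp4 had a ratio to Adipoq of 5.52, 24.6 and 71.5 in CKO libraries and 3.79, 5.95 and 8.26 in WT libraries. Lipe had one of 2.48, 11.7 and 25.0 in CKO libraries, against 1.97, 3.15 and 4.78 in WT libraries. These shares and ratios were chosen after their values were seen and have no test.

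**Figure D3:**
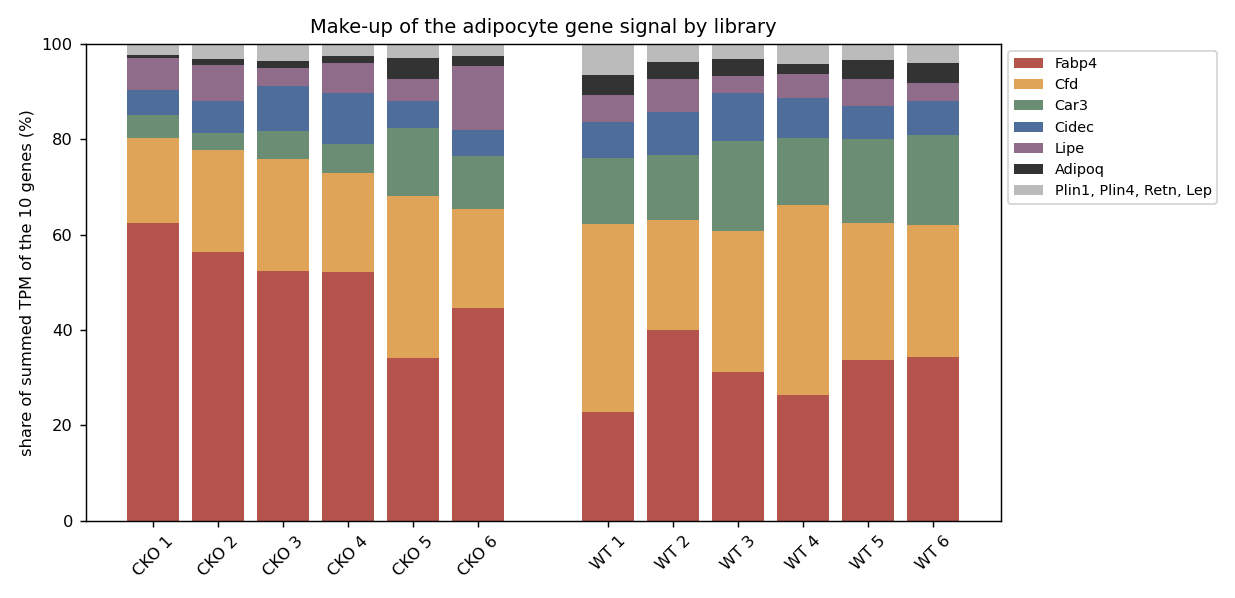
Share (%) of each gene in the summed TPM of the 10 fat cell genes, by library, CKO left and WT right. Fabp4 takes 34.2% to 62.4% in CKO libraries and 22.8% to 40.0% in WT libraries, and the Car3 band is thinner in most CKO libraries.

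Mice of one genotype differed in fat gene level, and ranked by TPM no mouse was highest or lowest for more than 5 of the 10 genes. CKO replicate 3 was the highest CKO library for 5 of the 10 genes, CKO replicate 5 for 3 and CKO replicate 2 for 2. CKO replicate 6 was the lowest for 5, replicate 4 for 3 and replicate 1 for 2. Among WT libraries replicate 4 was highest for 5 genes, replicate 6 for 3 and replicates 1 and 5 for 1 each, while replicate 2 was lowest for 5, replicate 5 for 3 and replicates 1 and 3 for 1 each. By reads some of these places change. WT replicate 5, with the highest WT Lep TPM, had 4 Lep reads, against 21 in WT replicate 6. WT replicate 1, with the highest Plin1 TPM, had 65 Plin1 reads, against 81 in WT replicate 6. In CPM, CKO replicate 3 was also the highest CKO library for Cfd and Lep, and CKO replicate 5 was the highest for Plin1 (1.93 against 1.91). The limit of 5 genes per mouse thus holds in TPM but not in CPM, where CKO replicate 3 exceeds it. Within CKO libraries the members nearest to Adipoq in log2 CPM were Plin1 (Pearson's r = 0.94, exact permutation p = 0.00139, the smallest that 720 pairings can give; Spearman's rho = 1.0, exact p = 0.00278), Car3 (r = 0.94, exact p = 0.00694; rho = 0.83, exact p = 0.0583) and Cfd (r = 0.89, exact p = 0.0194; rho = 0.77, exact p = 0.103). Fabp4 (r = 0.42, exact p = 0.410; rho = 0.60) and Lipe (r = 0.52, exact p = 0.274; rho = 0.54) had lower r values. Exact permutation p under 0.05 with a positive r was reached by 0.313% of all genes, and after adjustment over all 14392 genes each exact p was 1.0. Without CKO replicates 5 and 1, the libraries farthest from the median Adipoq, r over the other 4 was 0.94 for Plin1, 0.89 for Car3, 0.94 for Cfd, 0.88 for Fabp4, 0.86 for Plin4 and 0.52 for Lipe, so the gap between Fabp4 and Car3 rests on those 2 libraries. Within WT libraries the r with Adipoq was 0.85 for Lep (exact permutation p = 0.0431; rho = 0.71), 0.84 for Plin1 (exact permutation p = 0.0347; rho = 0.89) and 0.84 for Car3 (exact p = 0.0458; rho = 0.77), where 1.53% of all genes had such a p with a positive r. Without WT replicates 6 and 2 r became 0.10 for Lep, 0.68 for Plin1 and -0.14 for Car3, so the Lep and Car3 relations in WT rest on those libraries.

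Pck1 itself was lower in every CKO library than in any WT library. It had 1.73, 2.46 and 4.65 TPM as its lowest, median and highest level in CKO libraries, from 37 to 116 reads, against 24.4, 32.2 and 54.6 TPM in WT libraries (log2 fold change -3.66 ± 0.32, SE; edgeR adjusted p = 0.000391). Set against Adipoq in TPM, Pck1 was 0.185 to 2.01 times its level in CKO libraries and 2.19 to 8.66 times in WT libraries. CKO replicate 5, with the highest Adipoq level, had 2.61 TPM of Pck1, near the CKO median, and CKO replicate 4, with 2.17 TPM of Adipoq, had 4.37 TPM of Pck1. With the mean log2 CPM of the 10 genes added to the model as each library's fat level, Pck1 stood at -3.61 ± 0.33 (SE; edgeR adjusted p = 0.00152). The same model called 787 genes higher (5.47%) and 290 lower (2.01%), in place of 4 and 4 without it. A rise of this size was not particular to the fat level. With no fat level in the model, edgeR called 870 and 402 without CKO replicate 4 and 728 and 279 without WT replicate 4. Without WT replicate 6 it called 272 and 101, and without any other single library 0 higher and 2 or 3 lower. DESeq2 called 1103 and 429 over all 12 libraries.

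Within the 6 CKO libraries 9 of the 10 genes had a positive r with Pck1 in log2 CPM, where 49.6% of all genes did. Cidec had the highest r, 0.85 (exact permutation p = 0.0375; rho = 0.83, exact p = 0.0583), followed by Retn at 0.74 (exact p = 0.103; rho = 0.89, exact p = 0.0333), Fabp4 at 0.58 (exact p = 0.232; rho = 0.60) and Cfd at 0.51 (exact p = 0.285; rho = 0.83). Adipoq stood at 0.38 (exact p = 0.460; rho = 0.43), Plin1 at 0.30 (exact p = 0.531; rho = 0.43) and Lipe at -0.12 (exact p = 0.813; rho = -0.03). Plin4, Lep and Car3 lay between 0.32 and 0.44. One member, Cidec, had an exact permutation p under 0.05 with a positive r, against 2.1% of all genes, and after adjustment over 14392 genes every exact p for r was 1.0. With 6 libraries no gene could pass this adjustment alone, so not passing does not tell a relation from none. Without CKO replicates 3 and 4, the 2 farthest from the median Pck1, r over the other 4 libraries was 0.98 for Cidec, 0.75 for Retn and 0.80 for Adipoq. Leaving out 1 CKO library at a time gave r from 0.71 to 0.96 for Cidec, 0.17 to 0.64 for Adipoq and -0.13 to 0.74 for Plin1. The count of 9 positive values rests in part on CKO replicate 3. Without that library alone, r was -0.13 for Plin1, -0.03 for Plin4, -0.02 for Lep and -0.49 for Lipe. It was 0.05 for Car3 and 0.17 for Fabp4, and the remaining members also stayed above 0.

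In the 6 WT libraries 0 of the 10 genes had a positive r with Pck1, where 50.7% of all genes did. Retn had an r of -0.93 (exact permutation p = 0.0111; rho = -0.94, exact p = 0.0167) and Plin4 of -0.81 (exact p = 0.0431; rho = -0.83, exact p = 0.0583), while Adipoq stood at -0.03 (exact p = 0.960; rho = 0.14). Adjusted over all genes, the exact p was 0.592 for Retn and 0.594 for Plin4. These 2 members had an exact permutation p under 0.05 with a negative r, against 4.05% of all genes. The difference of r between genotypes was not tested. On the scales log2(TPM + 0.1), log2(TPM + 1) and linear TPM 9 of 10 members again had a positive r with Pck1 in CKO libraries, against 29.3%, 29.2% and 28.3% of all genes. The 10 genes vary together between mice, so their r values are not 10 separate observations.

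**Figure D4:**
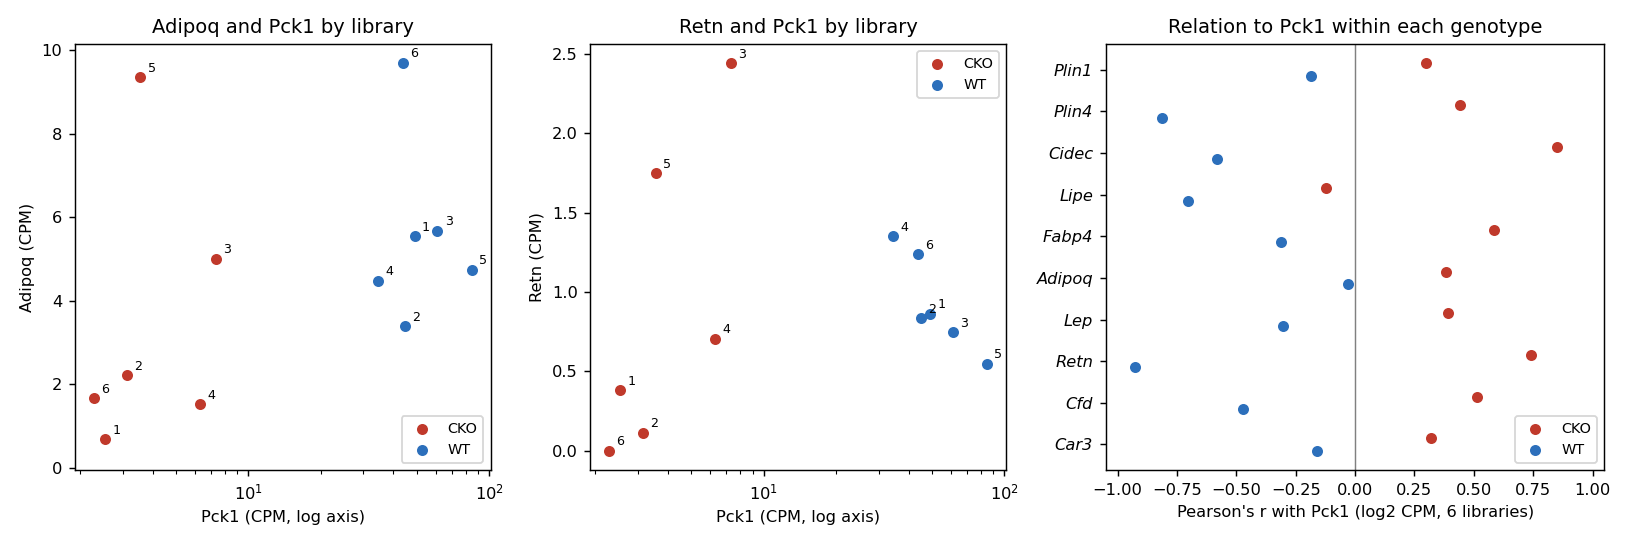
Left and middle, Adipoq and Retn (CPM, vertical) against Pck1 (CPM, log axis) in CKO (red) and WT (blue) libraries, numbered by mouse; right, Pearson's r with Pck1 over 6 libraries of each genotype. In CKO libraries 9 of 10 r values are above 0 and in WT libraries 0 of 10.

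Other genes of the fat cell, taken from a list of 20, gave a mixed picture. Of the 17 tested, 0 passed over all genes in edgeR, and the median log2 fold change was -0.08. At an unadjusted p under 0.05, 5 were higher and 5 lower, against 13.1% and 9.48% of all genes. DESeq2 called 3 higher and 3 lower, against 7.98% and 3.1% of all genes. Without CKO replicate 4 edgeR also called 3 higher and 3 lower, where 6.02% of all genes were called higher and 2.78% lower, and the median was 0.01. Without WT replicate 4 it called 2 and 2, against 5.03% and 1.93% of all genes. Without WT replicate 6 it called 1 and 1, against 1.88% and 0.699%, and the median was 0.06. Without both replicate 4 libraries it called 3 and 4, against 8.4% and 4.88%. Pparg, the master regulator of adipogenesis that colon epithelium also makes, stood at 70.5 ± 11.9 TPM in CKO libraries and 84.9 ± 10.1 TPM in WT libraries (SD, n = 6 each). The haptoglobin gene Hp, an acute phase gene too, stood at 396 ± 306 TPM in CKO and 100 ± 82.3 TPM in WT libraries, with a log2 fold change of 1.95 ± 0.58 (SE; edgeR adjusted p = 0.0778). The following genes of the list are named after their values were seen. Lgals12, a galectin of fat cells, had the smallest adjusted p of the list and averaged 8.77 ± 2.56 TPM in CKO and 14.5 ± 2.71 TPM in WT libraries (log2 fold change -0.78 ± 0.17, SE; edgeR adjusted p = 0.0531). Aoc3 and Arxes2 averaged 9.34 and 6.60 TPM over all libraries, Trarg1, Acvr1c and Adrb3 averaged 1.16, 0.964 and 0.699 TPM, and Adig and Slc7a10 had 41 and 34 reads in all 12 libraries. Acvr1c, an activin receptor that restrains lipolysis, stood at -0.99 ± 0.24, Adrb3, the fat cell adrenergic receptor, at -0.87 ± 0.39, and Trarg1, a regulator of glucose transporter traffic, at 0.90 ± 0.35 (log2 fold change, SE). Arxes1 stood at 1.34 ± 0.47, Arxes2 at 1.30 ± 0.37, Sncg at 0.63 ± 0.17 and Gpd1 at -0.43 ± 0.13.

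Genes of triglyceride storage and breakdown that many cells share had a median log2 fold change of 0.11, with 4 higher and 1 lower at an unadjusted p under 0.05 of 17 tested, and 0 passed over all genes in edgeR. Among all tested genes 13.1% were higher and 9.48% lower at that unadjusted p. DESeq2 called 2 higher and 1 lower, against 7.98% and 3.1% of all genes. Without both replicate 4 libraries edgeR called 2 higher and 0 lower, against 8.4% and 4.88%. Plin2, the widely made perilipin, stood at 150 ± 26.5 TPM in CKO and 114 ± 15.6 TPM in WT libraries, and Agpat2, an acyltransferase, at 131 ± 28.2 and 107 ± 25.6 TPM (SD, n = 6 each). Some defining genes of brown fat, named after their values were seen, were at or near 0. Ucp1, the uncoupling protein that defines brown fat, had 1 read in all 12 libraries, and Elovl3 and Zic1 had 0. Ebf2 had 85 reads, Cidea 43, Cox8b 29 and Cpt1b 25, and 3 of 10 brown fat genes passed the filter. Of these Cox7a1, a respiratory chain subunit that muscle also makes, stood at 12.4 ± 2.54 TPM in CKO and 21.6 ± 5.02 TPM in WT libraries. Ppara stood at 3.18 ± 1.30 and 3.74 ± 1.13 TPM, and Prdm16 at 2.09 ± 0.70 and 1.94 ± 0.56 TPM. Of the receptors for fat hormones, Adipor1 stood at 113 ± 6.66 TPM in CKO and 108 ± 10.1 TPM in WT libraries, and Adipor2 at 84.3 ± 12.2 and 84.1 ± 7.98 TPM. Of the 6 receptor genes 0 passed over all genes, 2 were higher and 0 lower at an unadjusted p under 0.05, and the median log2 fold change was 0.15. DESeq2, edgeR without CKO replicate 4 and edgeR without both replicate 4 libraries each called 1 of them higher. Of all genes these settings called 7.98%, 6.02% and 8.4% higher. In the brown fat list 1 gene was called lower by DESeq2 and by edgeR without CKO replicate 4, WT replicate 4, WT replicate 6 or both replicate 4 libraries. In that order, 3.1%, 2.78%, 1.93%, 0.699% and 4.88% of all genes were called lower.

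Close relatives of the members are made by other cells of the colon, some at much higher levels. Car1 and the goblet cell gene Retnlb, a resistin relative at 1262 ± 365 TPM in CKO and 975 ± 306 TPM in WT libraries, were the highest of 16 relatives. The neutrophil relative Retnlg, named after its values were seen, stood at 149 ± 145 TPM in CKO and 33.6 ± 40.2 TPM in WT libraries. Of 12 relatives tested, 0 passed over all genes, 3 were higher and 2 lower at an unadjusted p under 0.05, and the median was 0.11, which was -0.09 without CKO replicate 3. DESeq2 called 2 higher, and edgeR called 3 higher and 1 lower without both replicate 4 libraries, 1 and 1 without CKO replicate 4, and 1 and 0 without either WT replicate 4 or WT replicate 6. Among all genes 13.1% were higher and 9.48% lower at the unadjusted p, and DESeq2 called 7.98% higher. The edgeR shares were 8.4% and 4.88% without both replicate 4 libraries and 6.02% and 2.78% without CKO replicate 4. Without WT replicate 4 and WT replicate 6 edgeR called 5.03% and 1.88% of all genes higher.

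Markers of other cells that lie near fat or share its genes were summed in the same libraries. For 10 capillary endothelial genes the summed TPM was 208, 264 and 437 (lowest, median, highest) in CKO libraries and 148, 169 and 220 in WT libraries. Of these 10, 7 were higher and 0 lower at an unadjusted p under 0.05, against 13.1% and 9.48% of all genes. The median log2 fold change was 0.64. Plvap stood at 106 ± 28.4 TPM in CKO and 64.1 ± 13.0 TPM in WT libraries, and Pecam1 at 62.2 ± 17.6 and 39.1 ± 6.26 TPM (SD, n = 6 each). For 8 macrophage genes the summed TPM was 1120, 1393 and 2122 in CKO and 782, 1075 and 1471 in WT libraries, led by Lyz2 and C1qa, with a median of 0.53. For 7 neutrophil genes it was 253, 905 and 2576 in CKO and 56.4, 156 and 996 in WT libraries, led by S100a9 and S100a8, with a median of 1.39 over the 6 tested. Stroma from which fat cells arise, as 7 genes led by Ly6a and Pdgfra, had a median of 0.17, and mesothelium, the lining of the outer gut wall, as 8 genes led by Msln and Upk1b, had 9.01 to 42.1 TPM in CKO and 4.37 to 24.6 TPM in WT libraries with a median of 0.40, which was -0.08 without CKO replicate 2. For 8 lymphoid follicle genes the summed TPM was 140, 214 and 360 in CKO and 57.7, 92.8 and 159 in WT libraries. The leading gene Cxcl13, a B cell attractant, had a log2 fold change of 2.07 ± 0.46 (SE; edgeR adjusted p = 0.0531), Cd79a one of 0.00 ± 0.27, and the list a median of -0.16, which was 0.07 without WT replicate 2 and 0.02 without both replicate 4 libraries. The median was -0.26 for smooth muscle, led by Tagln and Acta2, -0.14 for skeletal muscle, led by Acta1 and Ckm, and -0.23 for colon epithelium. In each of these lists 0 genes passed over all tested genes in edgeR. DESeq2 called 5 endothelial, 3 macrophage, 1 neutrophil, 1 stromal and 1 follicle gene higher, against 7.98% of all genes. It called 2 smooth muscle, 1 follicle and 1 epithelial gene lower, against 3.1% of all genes. Without both replicate 4 libraries edgeR called 5 endothelial, 3 macrophage, 5 of 5 neutrophil, 2 stromal and 1 follicle gene higher, against 8.4% of all genes. In that setting 4 smooth muscle and 1 epithelial gene were called lower, against 4.88% of all genes. Without CKO replicate 4 edgeR called 5 endothelial, 2 macrophage, 1 neutrophil and 1 follicle gene higher and 2 smooth muscle genes lower. Without WT replicate 4 it called 5, 2, 4 and 1 higher and 2 lower in the same lists. Of all genes 6.02% were called higher and 2.78% lower without CKO replicate 4, and 5.03% and 1.93% without WT replicate 4. Without WT replicate 6 edgeR called 2 endothelial, 1 macrophage and 1 follicle gene higher, against 1.88% of all genes. By library size alone it called 2 endothelial, 1 macrophage, 1 neutrophil and 1 follicle gene higher, where 230 of all 14393 genes were called higher. The part of these cells in the levels of the 10 genes was not tested.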

How the data were processed

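Deposited counts and TPM of 12 colon libraries were used, with groups and mouse numbers from the labels. The authors deposited 1 table with whole-number read counts per gene, used as deposited, and TPM normalised by the authors for length and depth, per the file headers. It also holds the authors' log2 fold change and a p-value with its adjusted value per gene, deposited without a named test. The submitters' processing notes list GRCm38, mm10 and mm39; the sources used here do not give aligner, counter or use of strand. Per the labels' protocols, RNA was extracted with Trizol and libraries were made with a SMARTER kit. The table held 0 columns of other samples.

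Genes were filtered by filterByExpr (minimum count 10, total 15; 14393 kept), scaled by TMM and tested with edgeR 4.0.16 in R 4.3.3 (quasi-likelihood, CKO minus WT, 12 libraries, Benjamini-Hochberg, threshold 0.05), after a test on simulated data. Alternatives used DESeq2 1.42.0, limma 3.58.1 (voom), other scalings and filters, the replicate number, the fat level as a covariate and left-out libraries. Relations to Pck1 and Adipoq used log2 CPM (prior count 2) within one genotype, with exact two-sided permutation over 720 pairings for every tested gene. They form 4 families of 14392 genes each, adjusted separately. The smallest exact p is 0.00139, so after adjustment a gene can pass only if many others also reach that floor. Of 162 list genes all 162 were in the table. Chromosomes are from GENCODE M21 (GRCm38). Members and lists were chosen with earlier results of these data known. Named genes are the members, Pck1, Pck2, the 2 most abundant of each list, the 10 genes nearest to the members' profile, and further list genes chosen after their values were seen. TPM per read differed between libraries for Lep (6.16-fold) and Plin1 (2.47-fold) and by up to 1.28-fold for the other 8 members, so tests rest on counts. Library totals of 15348192 to 19138507 set the counting error, and the floor of 3 counts covers that error only.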

Additional observations from a re-analysis of the deposited data

Results flagged for a closer look

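Among 24 groups of 6 libraries checked (12 genes in both genotypes), 1 sample lay far from the others of its group. Cidec stood at 38.9 TPM in CKO replicate 3, against 18.3 TPM in the next CKO library, a gap of 0.636 of the whole CKO range, past Dixon's 95% critical value for 6 samples. About 1 in 20 groups passes that value by chance. By TPM, CKO replicate 3 was also the CKO library with the most Fabp4, Plin1, Plin4 and Retn. For Plin1 it had 29 reads, against 32 in CKO replicate 5.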

How the results depend on the processing

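Chosen after seeing the data were the setting without both replicate 4 libraries, the sums without Fabp4 and Cfd, and the relations to Adipoq. The number of members called was 0 higher and 0 lower under each scaling, each filter, limma voom and each single left-out library (lowest and highest 0), and changed to 1 lower with DESeq2 and to 1 higher without both replicate 4 libraries. Mouse numbers did not pair the samples (correlations of same-numbered deviations from -0.50 to 0.08), and with the replicate block 0 members were called higher and 0 lower, and 0 genes higher and 1 lower over all genes. Calls over all genes without a single library ran from 0 to 870 higher and from 2 to 402 lower, with the highest counts without CKO replicate 4 (870 and 402), WT replicate 4 (728 and 279) and WT replicate 6 (272 and 101); DESeq2 called 1103 and 429, library size alone 230 and 45, DESeq2's size factors 33 and 19 and limma voom 30 and 19. With the replicate block Adipoq stood at -1.08, Retn at -0.59, Lep at -0.22 and Cfd at -0.42.

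Cidec, at -0.00 in edgeR, had log2 fold changes of 0.0098 with DESeq2's size factors, 0.0070 with library size only, 0.0046 with upper quartile, 0.019 with no low-count filter, 0.00016 with a mean CPM of at least 1, 0.011 in DESeq2 and 0.14 without both replicate 4 libraries. In limma voom Cidec stood at -0.23, and with the replicate block at -0.19. Without single libraries it ran from -0.49 to 0.18, Plin4 from -0.14 to 0.33, Retn from -0.65 to 0.20 and Lep from -0.57 to 0.21, and without both replicate 4 libraries Cfd stood at 0.038, Retn at 0.13 and Lep at 0.27. Plin1 (-2.13 to -1.48), Car3 (-1.48 to -0.79), Adipoq (-1.33 to -0.48), Fabp4 (0.48 to 0.99) and Lipe (0.32 to 0.50) kept their sign in each of these. The relation to Pck1 passed for 0 members on each scale and in WT libraries, a count that 720 pairings per gene could hardly have raised. In WT libraries r was -0.028 for Adipoq, -0.18 for Plin1, -0.81 for Plin4, -0.47 for Cfd, -0.58 for Cidec, -0.31 for Fabp4, -0.70 for Lipe, -0.16 for Car3, -0.93 for Retn and -0.30 for Lep. The cause was not tested. Low counts limit Lep, Retn and Plin1 most.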

Other observations

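Outside the members, the 10 genes nearest to their shared profile were not on the lists of fat cell genes used. Of 14393 genes tested only 17 were on the list of other fat cell genes, so their absence among these 10 tells little. How many genes would reach such an r with no relation was not estimated. Over 12 libraries, the 10 tested genes with the highest Pearson's r to the mean z-scored log2 CPM of the members, given as a description, were Glb1l2 (0.89), Slc1a3 (0.84), Ccdc120 (0.84), Rhod (0.80), Abo (0.79), Cntn3 (0.79), P4htm (0.79), Itih4 (0.79), Vps29 (0.78) and PTPRG (0.77). Glb1l2 had 0.185 to 1.41 TPM in CKO and 0.386 to 1.96 TPM in WT libraries, and Vps29, a retromer subunit and the most abundant of them, 95.8 to 118 TPM in CKO and 81.5 to 117 TPM in WT libraries. From the other fat cell genes Adrb3 came nearest, at 0.64, while Pparg stood at 0.01 and, named after its value was seen, Cebpa, the C/EBP factor of fat cells, at -0.49. Of the members, Cfd (0.97) and Lep (0.94) had the highest r to the shared profile and Lipe (0.38) and Fabp4 (0.55) the lowest. Each member is itself part of that profile, which raises its r, so these values cannot be set beside those of other genes. Lep rests on 1 to 21 reads per library. The points share library depth and the mix of cells in each piece of colon.

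Exocrine pancreas genes, from another organ that lies outside the colon wall, varied widely. The summed TPM of 9 pancreas genes, led by Ctrb1 and Cela2a, ran from 8.49 to 2616 in CKO libraries and from 13.0 to 36615 in WT libraries. WT replicate 6, with the highest pancreas sum, also had the highest Adipoq (13.4 TPM) and Car3 (60.0 TPM) of the WT libraries. In CKO mice, replicates 1 and 5, with pancreas sums of 2616 and 2554 TPM, had 1.01 and 14.1 TPM of Adipoq, the lowest and the highest of that genotype.

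Pck2, the mitochondrial relative of Pck1, stood at 18.8 ± 3.37 TPM in CKO and 19.3 ± 4.70 TPM in WT libraries (SD, n = 6 each).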
